A study of Sus scrofa domesticus with 4 samples.

Results

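The genes described here are PTBP1 and 5 other splicing regulators, SRSF1, SRSF2, SRSF3, HNRNPK and HNRNPA1, in pig uterine muscle exposed to orexin B. Every array probe that carries the RefSeq mRNA of one of these genes was taken. Of the 6 genes, 4 had such a probe, with 12 probes among 43603 on the array, and SRSF3 and HNRNPK are not analysed here. All 12 probes were well above background on all 4 arrays in both channels and entered the 19881 probes tested. PTBP1 was chosen because an earlier reading of these arrays picked it out for a small spread between arrays among the genes that it named as higher with orexin B. It is not the gene of smallest spread on the array, since EWSR1, described below, had ratios above 0 on all 4 arrays with an SD of 0.038. Its ratios are therefore described without a test, and the 10 probes of the other genes were tested.

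Orexin B is a peptide ligand of the orexin receptors. Slices of myometrium, the muscle layer of the uterus, were cut from the middle of the uterine horns of Large White x Polish Landrace gilts aged 7 to 8 months, on days 15 to 16 of gestation. Slices were kept for 24 h in medium 199 with 10 nM orexin B, and the untreated slices in the same medium without it. Orexin B and untreated RNA were hybridised together on each of 4 Agilent arrays of 2 colours, where Cy5 marked the orexin B RNA of arrays 1 and 3 and Cy3 that of arrays 2 and 4, per the dye fields of each sample. The labelling protocol in the labels gives Cy5 to orexin B RNA for all arrays, which conflicts with the fields of arrays 2 and 4. The fields were followed, and read by the protocol A_72_P440001 of PTBP1 would have a mean log2 ratio of 0.012 in place of 0.79. The labels give 4 gilts and duplicate cultures but tie no array to a gilt, so the spread given is that between arrays. The explants hold every cell type of the muscle layer, and in such bulk RNA fewer cells of a type and less RNA per cell cannot be told apart.

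Splicing removes introns from pre-mRNA, and regulatory proteins decide which exons are kept. SR proteins such as SRSF1 and SRSF2 bind exons and mostly promote their use, whereas hnRNP proteins such as HNRNPA1 and PTBP1 more often repress them. PTBP1, the polypyrimidine tract-binding protein, is known from rat and human cells for repressing muscle-type exons, among them exons of the tropomyosin and alpha-actinin genes in smooth muscle. The roles given below are known from human, mouse or rat genes. The arrays measured mRNA levels and not exon use.

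All smooth muscle markers with a probe (8 of 14) were bright enough to test, among them ACTA2, DES and CNN1. The share of probes well above background was 54.3%, 48.7%, 51.2% and 52.8% in the orexin B channel of arrays 1 to 4, against 37.6%, 50.1%, 45.5% and 58.2% in the untreated channel. Over all tested probes, the ratios of the 2 arrays of the same dye orientation correlated at 0.14 and 0.36, and those of arrays of opposite orientation at between -0.18 and 0.14. The small number of arrays limits precision. By limma's moderated test the smallest adjusted p of any probe was 0.596, and 1534 probes had an unadjusted p under 0.05.

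After loess normalization, both PTBP1 probes had a log2 ratio above 0 on every array, whereas median centring put both below 0 on array 2. The brighter probe, A_72_P440001, had normalised levels (log2 intensity) of 12.23, 12.88, 12.37 and 12.24 in orexin B explants on arrays 1 to 4. In untreated explants its levels were 11.34, 12.18, 11.66 and 11.39. The lowest orexin B level lay above the highest untreated level, as it did at 1.14% of all tested probes, and nothing is read from this since the ratio chose the gene. The log2 ratio of orexin B over untreated was 0.89, 0.70, 0.71 and 0.85, with a mean of 0.79 ± 0.096 (SD, n = 4 arrays), or 1.73-fold.

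The second PTBP1 probe, A_72_P686070, had levels of 10.68, 11.18, 10.82 and 10.26 in orexin B explants, against 9.82, 10.87, 10.08 and 9.44 in untreated explants. These levels overlapped between the groups, since the untreated level of array 2 was above 3 of the 4 orexin B levels. Its log2 ratio was 0.86, 0.31, 0.74 and 0.82, with a mean of 0.68 ± 0.25 (SD, n = 4 arrays), or 1.61-fold. Both probes thus gave like ratios on arrays 1, 3 and 4, and on array 2 they differed by 0.39. Averaged over both probes, PTBP1 had a mean log2 ratio of 0.74 ± 0.17 (SD, n = 4 arrays), or 1.67-fold.

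**Figure D1:**
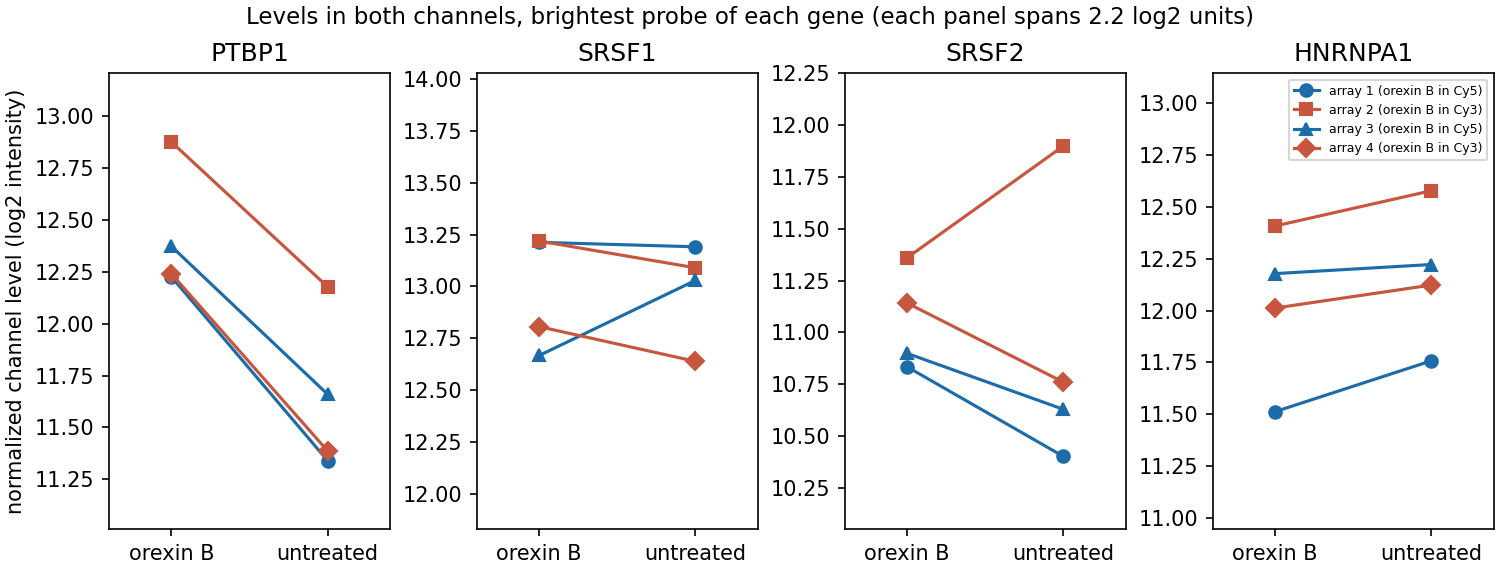
Normalised channel levels (log2 intensity, vertical axis) of the brightest probe of PTBP1, SRSF1, SRSF2 and HNRNPA1 in orexin B explants (left in each panel) and untreated explants (right), with a line joining the 2 channels of an array. All 4 PTBP1 levels with orexin B, from 12.23 to 12.88, lie above all 4 untreated levels, from 11.34 to 12.18, whereas the levels of the other genes overlap.

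The small spread of PTBP1 was that of A_72_P440001. After loess, 5.57% of tested probes had a smaller SD than this probe, and 44.9% a smaller SD than A_72_P686070. At A_72_P440001 the small spread appeared after correction for dye and brightness and not in the uncorrected signals. At A_72_P440001 the median spot signals were 3788, 6477.5, 7681 and 4495 in orexin B explants, against 2128, 7047.5, 2693 and 2514 in untreated explants. On array 2, where untreated RNA carried Cy5, the uncorrected signal was lower in orexin B explants. The uncorrected log2 ratio was 0.83, -0.12, 1.51 and 0.84 on arrays 1 to 4.

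Other probes of like brightness shifted in the same way on each array. Tested probes within 0.5 log2 units of the brightness of A_72_P440001 had a median uncorrected log2 ratio of -0.094, -0.81, 0.79 and -0.023 on arrays 1 to 4. With that median subtracted, A_72_P440001 had ratios of 0.93, 0.69, 0.72 and 0.86, with a mean of 0.80 ± 0.11 (SD, n = 4 arrays). Centring each array on the median of all its probes, which takes no account of brightness, gave 1.69, -0.45, 1.20 and 0.34, with a mean of 0.70 ± 0.95 (SD, n = 4 arrays). Agilent's processed signals, which carry the scanner software's own dye normalization, gave 1.00, 0.63, 0.79 and 0.84, with a mean of 0.81 ± 0.15 (SD, n = 4 arrays). The mean of A_72_P440001 therefore stayed between 0.70 and 0.81 under these methods. Its spread and its sign on array 2 depended on a brightness-dependent correction. The mean of A_72_P686070 was 0.63 with median centring and 0.79 in Agilent's processed signals.

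**Figure D2:**
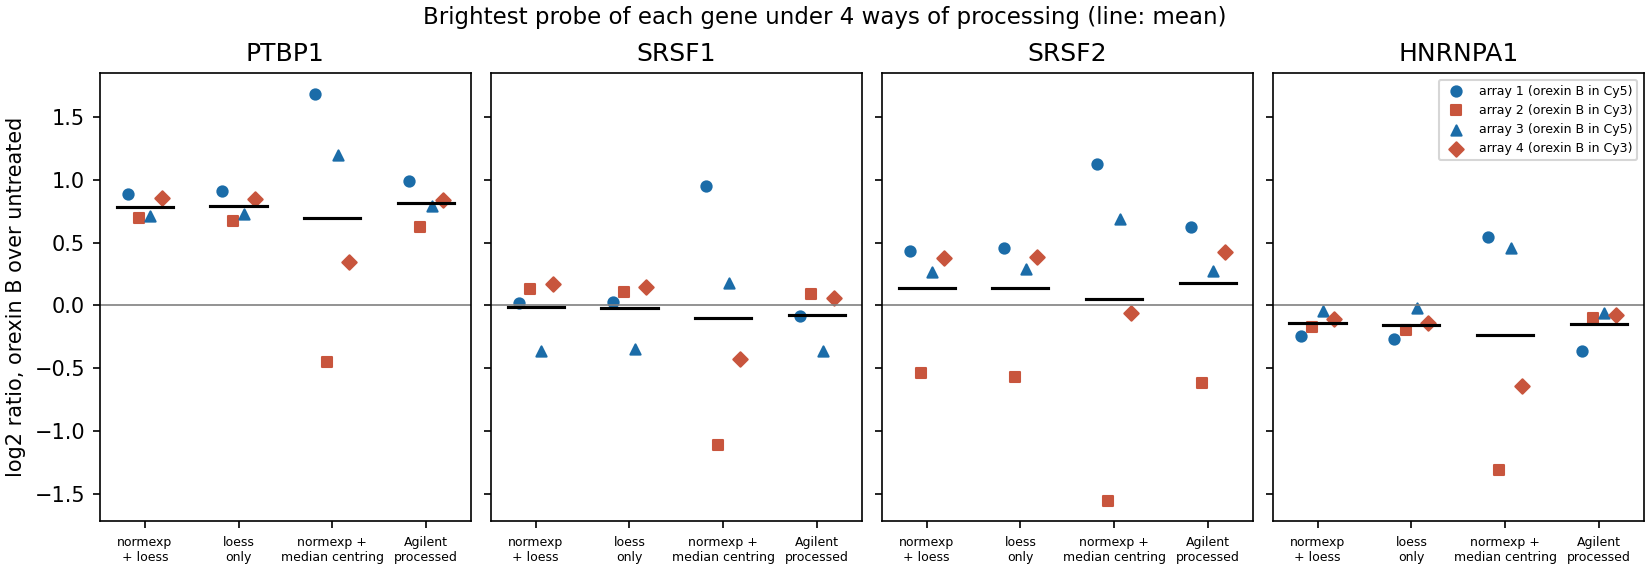
Log2 ratio of orexin B over untreated (vertical axis) at the brightest probe of each gene under 4 ways of processing (horizontal axis), with a point per array and a line at the mean. For PTBP1 the 4 arrays lie between 0.70 and 0.89 after loess and between -0.45 and 1.69 after median centring.

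By dye, the PTBP1 ratio at A_72_P440001 averaged 0.80 where orexin B RNA carried Cy5 and 0.78 where it carried Cy3. At A_72_P686070 these averages were 0.80 and 0.57. Leaving out each array in turn gave means between 0.76 and 0.82 at the brighter probe and between 0.63 and 0.81 at the other. Array 1 was alone on its slide, and arrays 2, 3 and 4 shared the other slide, where the means were 0.76 and 0.63.

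Of the other splicing regulators, none passed the test at any probe. In limma's moderated test 0 of 10 probes had an adjusted p under 0.05 (smallest adjusted p = 0.728), against 0% of all 19881 tested probes. At an unadjusted p under 0.05 there were also 0 of 10, against 7.72% of all tested probes (4.31% higher and 3.41% lower). Mean ratios were above 0 at 6 of the 10, against 54.1% of all tested probes. The orexin B and untreated levels overlapped at all 10, whereas levels with no overlap were found at 1.14% of all tested probes in the higher direction and at 0.583% in the lower. An unmoderated one-sample test gave 1 of 10 at an unadjusted p under 0.05, A_72_P030481 of HNRNPA1, against 6.01% of all tested probes, and 0 after adjustment. Leaving out array 2 gave 3 of 10 at an unadjusted p under 0.05 in limma, both SRSF2 probes and A_72_P442303 of SRSF1, against 7.22% of all tested probes, and 0 after adjustment (adjusted p = 0.682 for each).

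SRSF1, the founding SR protein, which promotes exon inclusion and has been studied as an oncogene in human cells, had 4 probes. The brightest, A_72_P303014, had log2 ratios of 0.022, 0.13, -0.36 and 0.17 on arrays 1 to 4, with a mean of -0.011 (95% interval -0.32 to 0.30; limma adjusted p = 0.991). A_72_P674346 had 0.11, 0.37, 0.097 and 0.15, with a mean of 0.18 (95% interval -0.090 to 0.45; limma adjusted p = 0.749). This was the only SRSF1 probe above 0 on all 4 arrays, as 8.92% of all tested probes were.

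A_72_P442303 of SRSF1 had log2 ratios of 0.46, -0.32, 0.29 and 0.28, with a mean of 0.18 (95% interval -0.19 to 0.54; limma adjusted p = 0.804). The dimmest probe, A_72_P307588, had -0.17, 0.11, -0.039 and 0.36, with a mean of 0.067 (95% interval -0.24 to 0.37; limma adjusted p = 0.921). The SRSF1 probes did not order the arrays in the same way, and array 2 was the highest at 1 probe and the lowest at another. The mean over the 4 probes was 0.10 ± 0.10 (SD, n = 4 arrays).

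SRSF2, also called SC35, is an SR protein of the nuclear speckles that is often mutated in human myeloid neoplasms. Its probe A_72_P522121 had levels of 10.83, 11.36, 10.90 and 11.14 in orexin B explants, against 10.40, 11.90, 10.63 and 10.76 in untreated explants. The log2 ratio was 0.43, -0.54, 0.27 and 0.38, with a mean of 0.14 (95% interval -0.29 to 0.57; limma adjusted p = 0.880). A_72_P146726 had 0.66, -0.50, 0.20 and 0.24, with a mean of 0.15 (95% interval -0.30 to 0.60; limma adjusted p = 0.872).

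Both SRSF2 probes were thus above 0 on arrays 1, 3 and 4 and below 0 on array 2. Without array 2 their means were 0.36 and 0.37. On array 2 the uncorrected signals of A_72_P522121 were 2329.5 in orexin B explants and 5457.5 in untreated explants. After the median of tested probes of like brightness was subtracted, the ratio on array 2 was still -0.53. Across both dye orientations, A_72_P522121 averaged 0.35 with orexin B in Cy5 and -0.079 with orexin B in Cy3.

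HNRNPA1, an abundant hnRNP that binds exonic and intronic silencers, had 3 of its 4 probe means below 0. A_72_P030481 had log2 ratios of -0.25, -0.17, -0.044 and -0.11, with a mean of -0.14 (95% interval -0.40 to 0.12; limma adjusted p = 0.785). Its SD was 0.086, and 4.01% of tested probes had a smaller one. A_72_P520487 had 0.18, -0.13, -0.042 and -0.073, with a mean of -0.015 (95% interval -0.29 to 0.26; limma adjusted p = 0.986).

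A_72_P706341 of HNRNPA1 had log2 ratios of -0.54, -0.16, -0.13 and -0.058, with a mean of -0.22 (95% interval -0.53 to 0.078; limma adjusted p = 0.728). A_72_P513522 had 0.54, -0.33, -0.10 and -0.076, with a mean of 0.0068 (95% interval -0.37 to 0.39; limma adjusted p = 0.997). A_72_P030481 and A_72_P706341 were below 0 on all 4 arrays, as 7.08% of all tested probes were. With median centring A_72_P706341 was at 0.22, -1.29, 0.36 and -0.57. The HNRNPA1 probes were 1.08 apart on array 1, where A_72_P513522 was highest and A_72_P706341 lowest.

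On array 1 the spot of A_72_P706341 had a local background of 1914 in the orexin B channel and 10228 in the untreated channel, against 23.5 to 38 on the other arrays. Its array 1 ratio was -1.87 without background correction and -2.01 in Agilent's processed signals, and without array 1 its mean was -0.12. The mean over the 4 HNRNPA1 probes was -0.094 ± 0.075 (SD, n = 4 arrays).

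**Figure D3:**
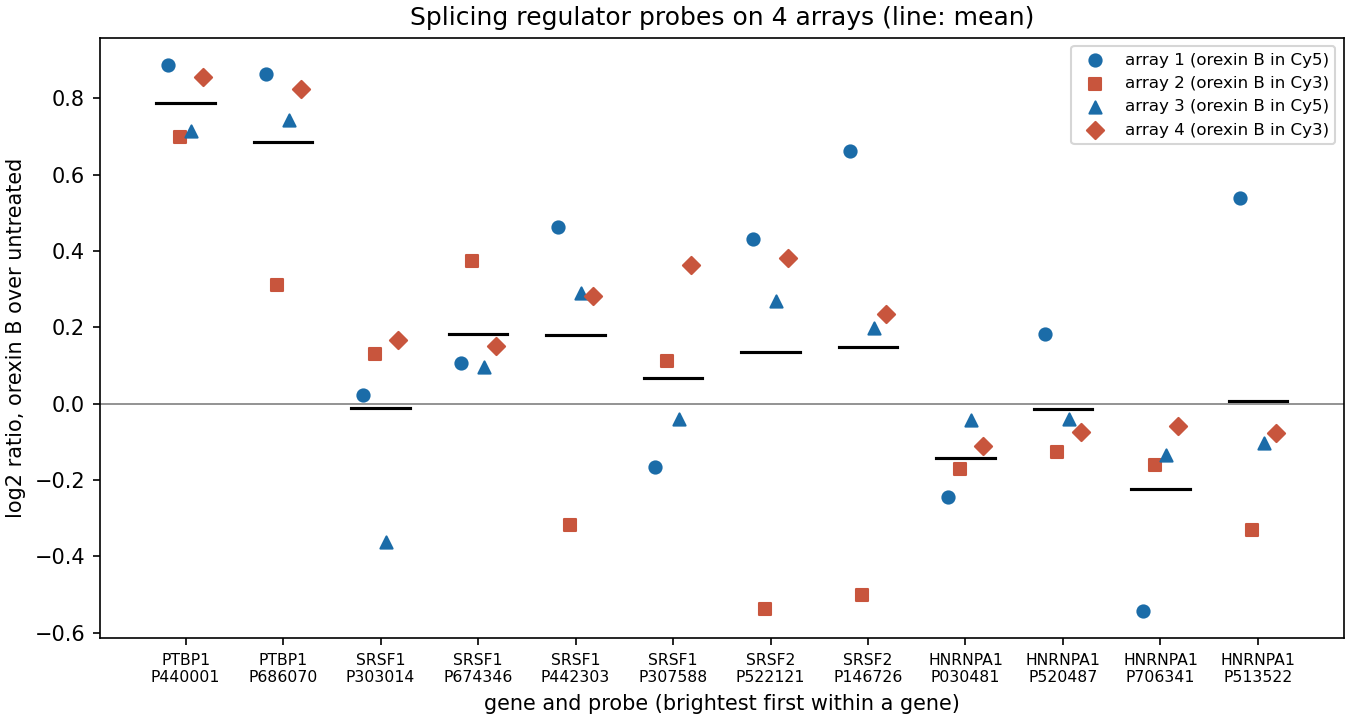
Log2 ratio of orexin B over untreated (vertical axis) of all 12 probes of PTBP1, SRSF1, SRSF2 and HNRNPA1 (horizontal axis), with a point per array and a line at the mean. The 2 PTBP1 probes lie above 0 on all 4 arrays with means of 0.79 and 0.68, and the means of the other 10 probes lie between -0.22 and 0.18.

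The upper 95% bounds of the other genes' probes ran from 0.078 to 0.60. No difference between PTBP1 and the others was tested, because PTBP1 was chosen by this ratio.

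The wider splicing machinery was read from lists of SR proteins, hnRNP and poly(rC)-binding proteins, other regulators, SR protein kinases and core spliceosome genes, 199 genes without PTBP1. Of these, 42 had a named probe and 41 were tested, each through its brightest tested probe. A mean ratio above 0 was found for 32 of the 41 genes (78.0%), against 53.7% of all 1979 named genes tested. The median log2 ratio of the 41 was 0.18, against 0.017 over all named genes. In limma's moderated test 0 of the 41 had an adjusted p under 0.05, against 0% of all named genes. At an unadjusted p under 0.05, 4 were higher (9.76%, against 6.27% of all named genes) and 0 were lower (against 4.24%).

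The median of the 41 genes by array was 0.15, 0.23, -0.033 and 0.26 on arrays 1 to 4, so it was not above 0 on array 3. Ratios above 0 on all 4 arrays were found for 8 of the 41 (19.5%), against 8.44% of all named genes. Ratios below 0 on all 4 arrays were found for 1 of the 41, HNRNPA1 through A_72_P030481, against 7.02%. Its probes A_72_P520487 and A_72_P513522 were above 0 on array 1, at 0.18 and 0.54. With median centring the count above 0 was 28 of 41 (68.3%, against 44.3% of all named genes), and the median was 0.085, against -0.024 over all named genes. Leaving out each array gave 31 to 33.

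The dye orientation moved with these ratios. For 22 of the 41 genes (53.7%) the 2 ratios measured with Cy3-labelled orexin B RNA both exceeded the 2 measured with Cy5-labelled orexin B RNA, against 20.2% of all named genes. The reverse held for 5 of the 41, against 27.2% of all named genes. The part of the dye orientation in the ratios of these genes as a set was not tested.

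**Figure D4:**
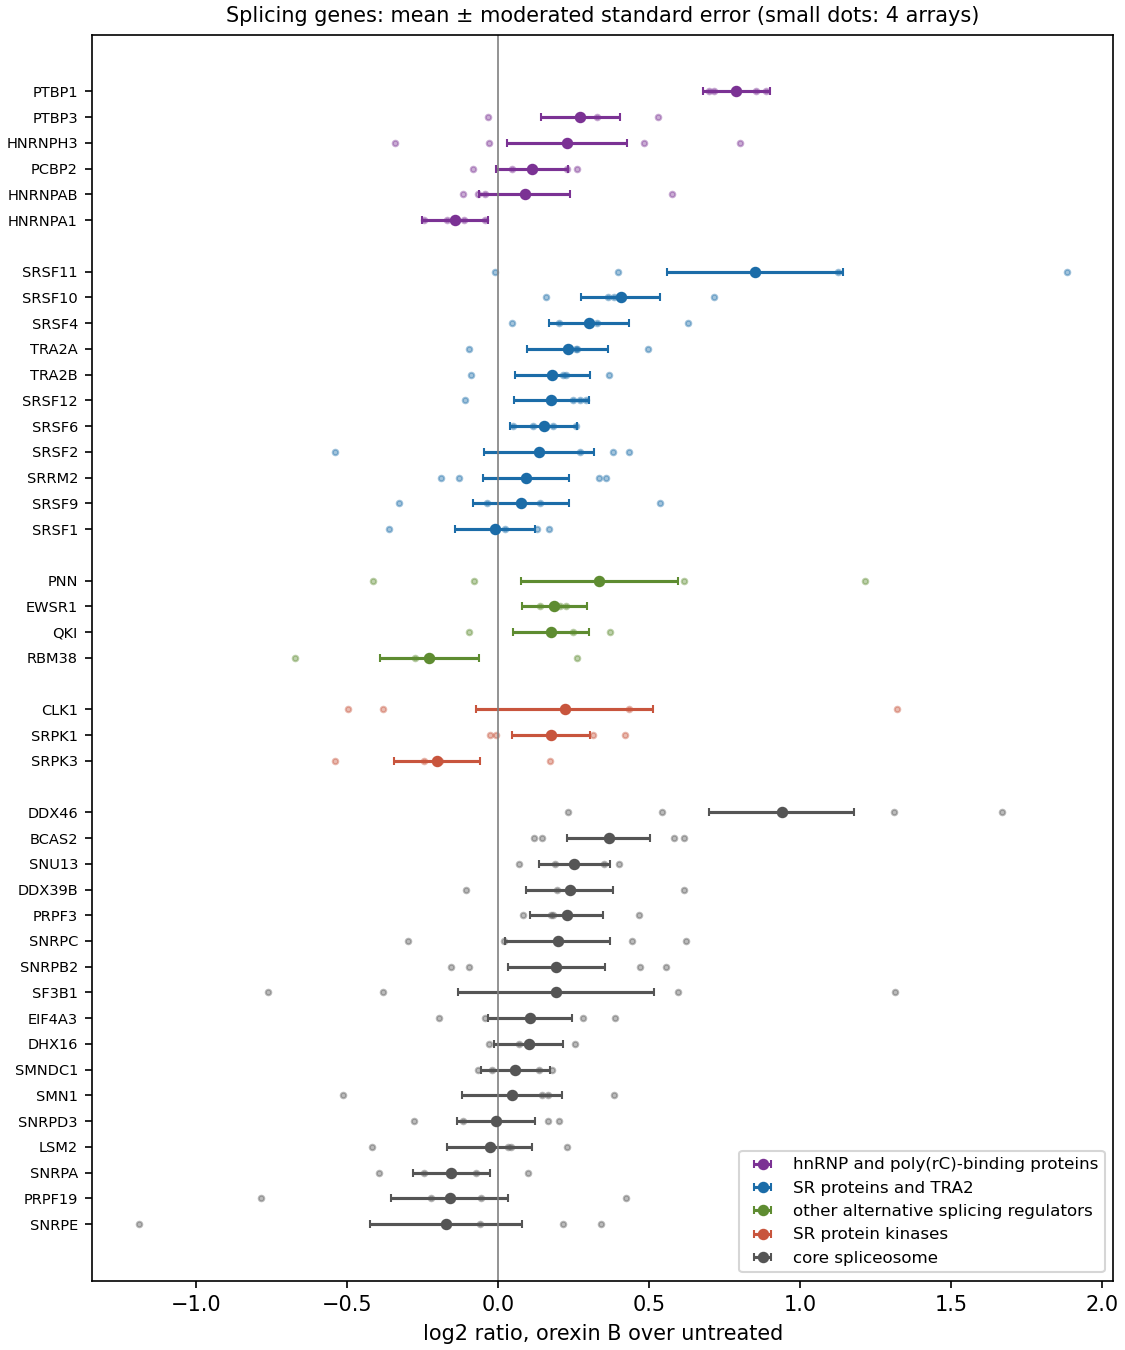
Mean log2 ratio of orexin B over untreated (horizontal axis) with its moderated standard error for splicing genes of the lists (vertical axis), with small dots for the 4 arrays. Most means lie above 0, and at several genes, SRSF11, DDX46 and CLK1 among them, the 4 arrays span more than 1 log2 unit.

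Among SR proteins and TRA2 genes, 10 of 11 tested genes had a mean above 0, with a median of 0.18, and 0 passed limma's adjusted threshold. SRSF11, an SR-related protein also called p54, had log2 ratios of 0.40, 1.88, -0.0099 and 1.13 on arrays 1 to 4, with a mean of 0.85 ± 0.29 (moderated SE; limma adjusted p = 0.596). Its mean was 0.50 without array 2. SRSF10, an SR protein that can act as a splicing repressor, had 0.36, 0.39, 0.16 and 0.71, with a mean of 0.41 ± 0.13 (moderated SE; limma adjusted p = 0.596). SRSF4, a large SR protein, had 0.63, 0.33, 0.048 and 0.20, with a mean of 0.30 ± 0.13 (moderated SE; limma adjusted p = 0.644). The lowest of the list besides SRSF1 were SRRM2, a scaffold of nuclear speckles, at 0.093, and SRSF9, at 0.078. The other tested probe of SRSF9 had a mean of -0.083.

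Of the hnRNP and poly(rC)-binding list, 6 genes were tested, PTBP1 and HNRNPA1 among them. PTBP3, the paralogue of PTBP1 first described in blood cells, had log2 ratios of 0.33, 0.53, -0.033 and 0.26, with a mean of 0.27 ± 0.13 (moderated SE; limma adjusted p = 0.671). All 4 of its tested probes had means above 0, between 0.15 and 0.27, below the PTBP1 probes. HNRNPH3, of the G-rich-sequence-binding H family, had a mean of 0.23 ± 0.20 (moderated SE), and 0.038 without array 2. PCBP2, which binds C-rich RNA, had a mean of 0.11, and HNRNPAB, an hnRNP related to HNRNPA1, a mean of 0.089.

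Of other alternative splicing regulators, 4 were tested. PNN, a speckle protein that interacts with SR proteins, had log2 ratios of -0.079, 1.22, -0.41 and 0.62, with a mean of 0.34 ± 0.26 (moderated SE), and 0.041 without array 2. EWSR1, an RNA-binding protein of the FET family, had 0.14, 0.21, 0.18 and 0.23, with a mean of 0.19 ± 0.11 (moderated SE; limma adjusted p = 0.728), the smallest spread of the genes in this paragraph. QKI, which controls muscle exons, had a mean of 0.18, and RBM38, an RNA-binding protein induced by p53, a mean of -0.23. The 3 tested probes of RBM38 had means from -0.23 to 0.16, with a median of -0.017.

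The kinases that phosphorylate SR proteins showed no common direction. CLK1, a nuclear SR protein kinase, had log2 ratios of -0.50, 1.32, -0.38 and 0.44, with a mean of 0.22 ± 0.29 (moderated SE), and of -0.15 without array 2. SRPK1, its cytoplasmic counterpart, had a mean of 0.18 ± 0.13 (moderated SE), and SRPK3, the striated muscle form, a mean of -0.20 ± 0.14 (moderated SE).

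Among core spliceosome genes, 13 of 18 had a mean above 0, with a median of 0.15. DDX46, an RNA helicase of early spliceosome assembly, had log2 ratios of 0.54, 1.67, 0.23 and 1.31, with a mean of 0.94 ± 0.24 (moderated SE; limma adjusted p = 0.596). BCAS2, a subunit of the PRPF19 complex, had 0.15, 0.58, 0.12 and 0.62, with a mean of 0.37 ± 0.14 (moderated SE; limma adjusted p = 0.621). The lowest of the list were SNRPE, a ring protein of the spliceosomal snRNPs, at -0.17, PRPF19, a ubiquitin ligase, at -0.16, and SNRPA, an snRNP protein, at -0.15. SNRPE was -1.19 on array 1, and 0.17 on average without it. The other tested probe of SNRPE had a mean of 0.10.

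**Figure D5:**
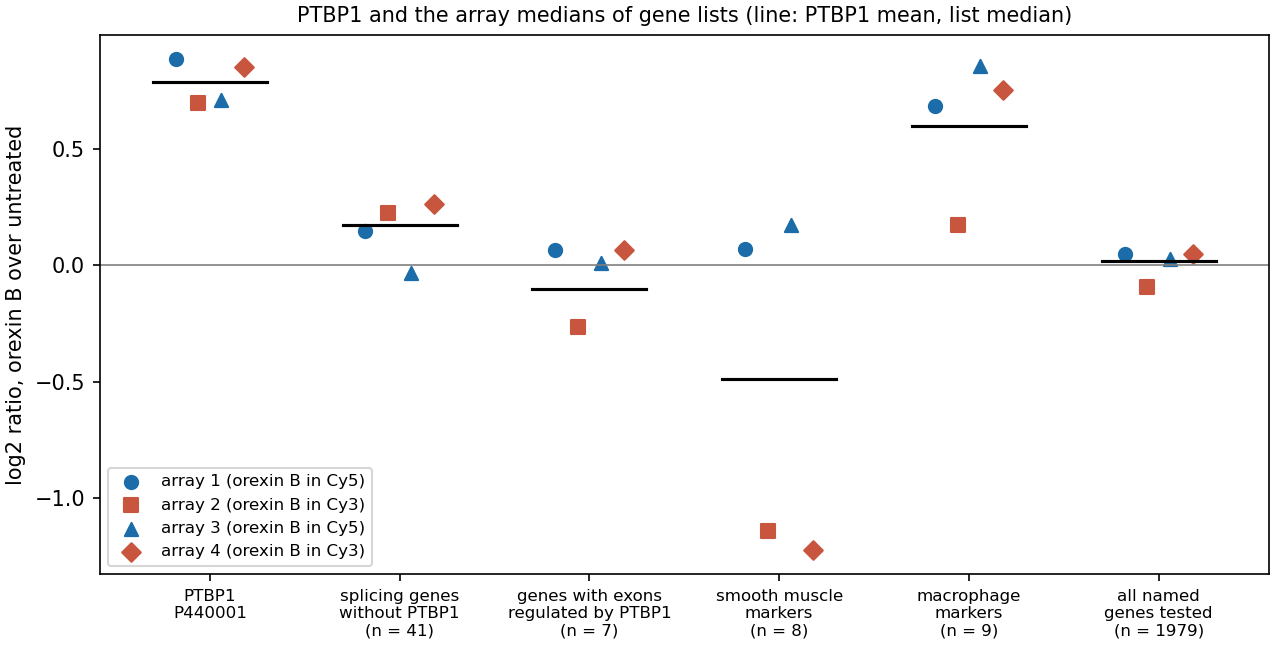
Log2 ratio of orexin B over untreated (vertical axis) of the brightest PTBP1 probe and median ratios of gene lists (horizontal axis). The lists are the splicing genes without PTBP1, genes whose exons PTBP1 is known to regulate, smooth muscle and macrophage markers and all named genes. Each point is an array, a line marks the PTBP1 mean or the list's median over genes, and n is the genes tested. PTBP1 lies between 0.70 and 0.89 on the 4 arrays, and the median of the splicing genes is below 0 on array 3.

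Genes whose exons PTBP1 is known to regulate had 7 tested members, 2 with a mean above 0 and 5 below, with a median of -0.10. These are levels of whole mRNAs as probes saw them. ACTN1, alpha-actinin, had a mean log2 ratio of 0.22 ± 0.16 (moderated SE), and FGFR2, a growth factor receptor, one of 0.077 ± 0.13. The other tested probe of ACTN1 had a mean of -0.018. RTN4, a reticulon of the endoplasmic reticulum, had a mean of -0.0095 ± 0.12 and VCL, the adhesion protein vinculin, one of -0.34 ± 0.17 (moderated SE). TPM1, a tropomyosin, had ratios of 0.0035, -0.45, 0.062 and -1.13, with a mean of -0.38 ± 0.21 (moderated SE), and TPM2 had 0.43, -1.15, -0.055 and -0.90, with a mean of -0.42 ± 0.26 (moderated SE). Both tropomyosins were lower on the arrays with orexin B in Cy3, 2 and 4, than on the others. Without array 4 the TPM1 mean was -0.13 and the VCL mean -0.15, and without array 2 the TPM2 mean was -0.18. At the brightest probes of the 7 genes the smallest limma adjusted p was 0.680, for VCL. Over all their tested probes it was 0.596, at another probe of TPM1.

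Proliferation genes were listed because PTBP1 and SR proteins are often high in dividing cells. Only 3 were bright enough to test, AURKB, BIRC5 and MYC, with means of -0.011, -0.067 and -0.077. The tested probes of MYC had means from -0.077 to 0.0059. TOP2A, CCNB1, CCNB2, CDK1, AURKA and CDC20 had a probe but were not well above background on all 4 arrays in either channel. CDK1 was above it on 3 arrays in each channel and CCNB1 on 2, CCNB2 on 1 in orexin B explants and 0 in untreated explants, and the others on 0.

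The pattern of PTBP1 over the arrays was set against the brightest tested probe of 1956 other named genes by Euclidean distance between the 4 log2 ratios. CALR, the endoplasmic reticulum chaperone calreticulin, was nearest, with ratios of 0.98, 0.54, 0.86 and 0.58, at a distance of 0.36. HIST1H2BD, a histone gene, followed with 0.75, 0.59, 0.55 and 0.41, at a distance of 0.50. AIF1, a macrophage gene, had 0.36, 0.45, 0.86 and 0.86, at a distance of 0.60. GGTA1P was at a distance of 0.64 with a mean ratio of 0.49, and FOLR1, a folate receptor, was also at 0.64 with a mean of 0.55.

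This distance uses the PTBP1 ratios by which the gene was chosen, so it favours genes that are high and even over the arrays. No splicing gene was among the 5 nearest, and nothing is read from this, since only 41 of them were tested beside 1956 genes compared. SRSF10 was the nearest splicing gene at rank 25 (1.28% of the genes compared), with a distance of 0.84. BCAS2 followed at rank 57, SRSF4 at 83, SNU13 at 109 and PTBP3 at 123 (6.29%). SRSF2 stood at rank 546 (27.9%), SRSF1 at 963 (49.2%) and HNRNPA1 at 1424 (72.8%).

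Marker lists of cell types had medians away from 0, and no marker passed limma's adjusted threshold. Lists of 2 to 4 tested genes had medians of 0.32 (neutrophil), 0.18 (T and NK cell), 0.31 (endothelium), -0.41 (fibroblast) and -0.26 (epithelium). Of all named genes tested, 53.7% had a mean above 0. Macrophage markers had means above 0 for all 9 tested of 11, with a median log2 ratio of 0.60 (0.69, 0.18, 0.86 and 0.76 on arrays 1 to 4). MRC1 among them had no unmarked spot on array 1 and rests on 3 arrays. Their summed level (linear intensity) was 7574 to 17968 in orexin B explants, against 4580 to 10756 in untreated explants. Smooth muscle markers had means below 0 for all 8 tested of 14, with a median of -0.49 (0.073, -1.14, 0.17 and -1.22 on arrays 1 to 4), above 0 where orexin B RNA carried Cy5 and below 0 where it carried Cy3. For 7 of the 8 (87.5%) both Cy5 arrays exceeded both Cy3 arrays, against 27.2% of all named genes. Their summed level was 329446 to 861500 in orexin B explants, against 611663 to 1063570 in untreated explants. The part of either cell type in the ratios of PTBP1 and the other splicing genes was not tested. That of the dye was not tested for these genes as a set. With dye as a further term in limma, its smallest adjusted p at the probes of SRSF1, SRSF2 and HNRNPA1 was 0.508. At these probes the dye terms ran from -0.17 to 0.28 and the orexin B terms from -0.22 to 0.18. With only 4 arrays no conclusion on the dye is drawn from this fit. Beside these medians, the PTBP1 ratios on arrays 1 to 4 were 0.89, 0.70, 0.71 and 0.85 at A_72_P440001. At A_72_P686070 they were 0.86, 0.31, 0.74 and 0.82.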

How the data were processed

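The deposited scanner files hold intensity values per spot, the median pixel brightness and its local background in Cy3 and Cy5, with processed signals and a log10 ratio. Per the file headers, the software was Agilent Feature Extraction, version 10.7.3.1, which subtracted background and normalised dyes in the processed signals. The log10 ratio was not used in a result. The deposited series table holds log2 ratios by the authors, which matched the processed signals within 0.01 for 100% of 43541 probes after turning arrays 2 and 4. Its column medians were -0.27, -0.08, -0.20 and -0.09, so it was not centred.

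Each ratio's direction came from the dye fields of the labels. The labels' protocol gives Cy5 to orexin B RNA on all arrays, in conflict with the fields of arrays 2 and 4. Background was corrected with normexp (offset 50) and arrays normalised by loess with limma 3.58.1 under R 4.3.3. Control spots had weight 0, and between 31 and 138 outlier spots per array were left out. Probes well above background on all 4 arrays in either channel, with at least 3 unmarked arrays, were tested by lmFit and eBayes (3 residual and 4.10 prior degrees of freedom), with two-sided p-values adjusted by Benjamini-Hochberg over 19881 probes. Channel levels come from loess followed by Aquantile normalisation. With 4 arrays the smallest two-sided p from exact sign changes would be 0.125, so limma's moderated test was used.

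RefSeq identifiers, stripped of their version, found a gene of the Sscrofa11.1 annotation for 6700 of 43603 probes, giving 3029 genes, of which 1979 were tested. The other probes stayed unnamed. The members and gene lists were chosen with earlier results of these data known. Named genes are all members, the 3 highest and 3 lowest of each list, and the 5 nearest to PTBP1; a few others are named by rank only, and 1 gene that this rule names is not reported here. In a simulation of orexin B over untreated on 19710 probes with 200 changed, the fit recovered 0%, 54.0% and 93.5% of probes changed by 0.5, 1 and 2 on the log2 scale. Alternatives covered background, normalization, source of the values, filter, dye, slide, test and leaving out single arrays. Plots used matplotlib 3.10.9 in Python 3.11.15.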

Additional observations from a re-analysis of the deposited data

Results flagged for a closer look

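In groups of 4 arrays, 6 of 59 sets of values had an array standing apart from the other 3 by Dixon's test at its 95% critical value. Chance gives about 2.95 for independent sets. These sets share genes and arrays, so no excess over chance is read from the count. At A_72_P522121 of SRSF2, array 2 stood at -0.54 and the others between 0.27 and 0.43. HNRNPAB stood at 0.57 on array 4, with the others between -0.11 and -0.042. The median of the SR proteins and TRA2 genes was -0.0099 on array 3, with the others between 0.26 and 0.29, and the median of all splicing regulators without PTBP1 was -0.039 on array 3, with the others between 0.24 and 0.26. The median of the genes whose exons PTBP1 is known to regulate was -0.27 on array 2, with the others between 0.012 and 0.068. The median of all named genes tested was -0.094 on array 2, with the others between 0.029 and 0.051.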

How the results depend on the processing

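With 4 arrays a log2 change of 0.5 at a single probe was not detectable by the adjusted threshold in simulation. The number of tested probes with an unadjusted p under 0.05 was 1534 of 19881 (7.72%), against 177 with median centring (0.89%), 727 without array 4 (3.66%) and 2382 with dye as a further term (12%), and 2302 of 43601 (5.28%) with no filter. In these, 0 passed adjustment. The ratio of an array is already the paired difference of orexin B and untreated RNA. The other members' 10 probes had 0 adjusted calls under every alternative run. An alternative chosen after seeing the data, uncorrected signals minus the median of probes of like brightness, gave 0.80 and 0.73 for the PTBP1 probes.

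If the ratios were not turned by the dye labels (Cy5 over Cy3 on all arrays), the PTBP1 probes were at 0.012 (A_72_P440001) and 0.12 (A_72_P686070), and 11 of the 41 splicing genes were above 0. By construction this reading changes the sign of arrays 2 and 4. Under it these genes changed sign: PCBP2 -0.023, AIF1 -0.024, EWSR1 -0.029, SRSF1 -0.080 (A_72_P674346) and -0.17 (A_72_P307588), GGTA1P -0.087, PTBP3 -0.12, SRSF10 -0.14, HNRNPAB -0.17, SRPK1 -0.19, BCAS2 -0.23, ACTN1 -0.24, SRRM2 -0.25, HNRNPH3 -0.41, DDX46 -0.55, PNN -0.58, and SRSF11 and CLK1 at -0.66. Those that came out above 0 were HNRNPA1 0.085 (A_72_P520487), BIRC5 0.12, SRPK3 0.19, AURKB 0.19, RBM38 0.25, VCL 0.25, PRPF19 0.26, TPM1 0.41 and TPM2 0.61.

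Under median centring, PCBP2 was -0.018, SRSF9 -0.027, HNRNPAB -0.055 and A_72_P513522 of HNRNPA1 -0.083. That probe was -0.050 in Agilent's processed signals and in the series table. On the shared slide alone, SRSF2 was -0.022 (A_72_P146726), SRSF9 -0.075, A_72_P513522 of HNRNPA1 -0.17 and SNRPE 0.17. The cause was not tested. With each array left out in turn, the sign changed for SRSF1 (-0.070 to 0.11 at A_72_P303014, -0.032 to 0.14 at A_72_P307588), SRSF2 (-0.022 to 0.37 at A_72_P146726) and HNRNPA1 (-0.080 to 0.022 at A_72_P520487, -0.17 to 0.12 at A_72_P513522). It also changed for AURKB (-0.083 to 0.062), BIRC5 (-0.13 to 0.0074), CLK1 (-0.15 to 0.46), HNRNPAB (-0.074 to 0.16), PRPF19 (-0.35 to 0.048), RTN4 (-0.063 to 0.035), SNRPE (-0.34 to 0.17) and SRSF9 (-0.075 to 0.21).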

Other observations

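The genes given here are all 7 list genes with at least 7 tested probes, a limit chosen after their values were seen. Several splicing genes have more than 1 tested probe, and their probes give a view that the brightest probe alone does not. All 11 BCAS2 probes had means above 0, from 0.21 to 0.45. All 9 SRSF11 probes were above 0, from 0.22 to 0.85, so the value given for the brightest probe was the highest of the 9. All 7 CLK1 probes were above 0, from 0.014 to 0.23. For SF3B1, the branch-site subunit mutated in human myeloid neoplasms, 6 of 7 probes were above 0, from -0.22 to 0.42. For SNRPD3, a ring protein of the spliceosomal snRNPs, 7 of 8 were below 0, from -0.16 to 0.068. For the tropomyosin gene TPM1, 20 of 21 were below 0, from -0.70 to 0.24. For the reticulon gene RTN4, 8 of 15 were below 0, from -0.17 to 0.34. Probes of 1 gene share the RNA of the same 4 arrays and are not replicates, and none of these had a limma adjusted p under 0.05.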
